A study of Homo sapiens with 28 samples.

Results

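Expression of 35 human genes of sterol synthesis, fatty acid synthesis, lipid droplets and lipid transport was followed in renal cell carcinoma xenografts that had grown on during treatment with a kinase inhibitor. The genes were taken by name, for their known place in these routes, and with earlier results of these data known. A gene was represented by 1 probe set, that of the highest mean over all 28 arrays among the probe sets annotated to it alone. By this rule 32 of the 35 genes had a value, of 19775 genes on the array, and all 32 were past the filter on low signals that left 13808 genes to test. CYP51A1 and FADS1 lay only on probe sets annotated to several genes, and FDFT1 was not matched, so these 3 were not analysed here.

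The study addressed how gene expression changes while renal tumours become resistant to inhibitors of the VEGF receptor. Cells of 786-O or A498, established human renal cell carcinoma lines that both lack a working VHL tumour suppressor, were grown under the skin of female athymic nude/beige mice that were 6 to 8 weeks old when injected. Both drugs block the VEGF and PDGF receptor kinases, and sorafenib also RAF. Mice received 80 mg/kg sorafenib or 53.6 mg/kg sunitinib by gavage, 6 days in each week, once the tumour measured 12 mm across, and were killed at that size before treatment or once a tumour had reached the permitted limit of 20 mm. The groups were 5 untreated and 5 resistant 786-O tumours of a sorafenib arm, 5 untreated and 4 resistant 786-O tumours of a sunitinib arm, and 4 untreated and 5 resistant A498 tumours of a sorafenib arm. Resistant tumours were the ones so labelled, and they had received the drug of their arm. The labels give neither the diameter nor the time on drug of a single tumour, so treatment and tumour size cannot be told apart. Athymic mice lack T cells but supply the vessels, fibroblasts and macrophages of the tumours, and the array was designed for human transcripts. Whether each tumour grew in a different mouse is not stated, and the p-values measure only how these samples vary.

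Cholesterol is built from acetyl-CoA through mevalonate, farnesyl diphosphate and squalene, and fatty acids are built from the same acetyl-CoA by fatty acid synthase and then elongated or desaturated. The genes of both routes are switched on by SREBP transcription factors, which stay in the endoplasmic reticulum, held by INSIG proteins, while sterols are plentiful, and move to the nucleus when sterols fall. Clear cell renal carcinoma is named for cells that look empty in sections because they store cholesteryl esters and triglycerides in lipid droplets.

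The deposited signals were scaled to equal trimmed means, array medians lay between 79.7 and 99.4, and arrays of the same group correlated with r from 0.949 to 0.971 over probe sets. Signals are printed on the linear scale as deposited, and differences are resistant minus untreated on the log2(signal + 16) scale ± standard error; the p-values are from limma, with Benjamini-Hochberg adjustment over the 13808 genes. This scale understates the change of dim genes. Tumours are numbered within a group in the order of deposition, and the numbers pair no tumours. The difference between 3-prime and 5-prime ACTB control probe sets, a measure of RNA quality, was highest in untreated tumour 5 and resistant tumour 4 of the 786-O sorafenib arm, and its means in that arm were 0.455 untreated and 0.451 resistant (two-sided exact permutation p = 0.984). Within the resistant group it was highest in tumours 4 (0.674) and 5 (0.536), against 0.290 to 0.440 in the others, and the same difference for GAPDH was highest of all 28 arrays in tumour 4 (0.225). Resistant tumour 4 also had the highest signals of many genes described here, so results of this arm are given with and without it where it matters. Of 7 markers of renal epithelium and renal carcinoma 6 were tested: PAX8, KRT8, KRT18 and VIM were above the filter limit on all 28 arrays, PAX2 on 26 and EPCAM on 7. Of these, KRT18 was higher (0.42) and PAX2 lower (-0.86) in the resistant tumours of the 786-O sorafenib arm, where 15.2% of all genes passed. KRT8 was lower (-0.44) in A498, where 6.34% passed, and none was called in the sunitinib arm, where 5.06% passed.

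Upstream sequences of 5 genes are shown because 4 of them rose together in resistant 786-O tumours of the sorafenib arm and the last holds the only match to a sterol regulatory element that was found. They were taken from RefSeq promoters of build GRCh38.p14, in which 30 of the 35 genes were matched, and each is read from 5′ to 3′ on the strand of its gene. For genes with several listed starts, as for 10 of the 30, the start listed first is used. The 250 bases before the start are printed for SCD (chr10:100346983-100347232, plus strand), INSIG1 (chr7:155297628-155297877, plus strand), HMGCS1 (chr5:43313413-43313662, minus strand) and MSMO1 (chr4:165327419-165327668, plus strand). For SREBF2 the stretch around the match is printed (chr22:41832932-41833020, plus strand). Capitals mark the CCAAT box, CCAAT or its complement ATTGG, and in SREBF2 also the sterol regulatory element.
SCD: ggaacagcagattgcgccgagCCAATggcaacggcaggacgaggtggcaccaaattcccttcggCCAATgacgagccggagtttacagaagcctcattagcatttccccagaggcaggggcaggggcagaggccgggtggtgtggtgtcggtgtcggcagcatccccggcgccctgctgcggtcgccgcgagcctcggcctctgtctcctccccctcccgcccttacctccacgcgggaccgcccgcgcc
INSIG1: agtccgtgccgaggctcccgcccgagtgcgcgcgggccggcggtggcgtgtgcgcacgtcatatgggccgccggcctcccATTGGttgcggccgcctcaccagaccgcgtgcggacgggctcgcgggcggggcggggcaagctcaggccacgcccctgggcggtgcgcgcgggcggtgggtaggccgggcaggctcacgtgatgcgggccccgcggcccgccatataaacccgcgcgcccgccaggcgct
HMGCS1: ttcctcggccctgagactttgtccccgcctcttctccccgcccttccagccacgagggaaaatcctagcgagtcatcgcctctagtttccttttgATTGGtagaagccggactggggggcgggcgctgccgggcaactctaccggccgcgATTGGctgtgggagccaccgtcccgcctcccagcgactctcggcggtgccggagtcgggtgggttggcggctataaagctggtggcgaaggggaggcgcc
MSMO1: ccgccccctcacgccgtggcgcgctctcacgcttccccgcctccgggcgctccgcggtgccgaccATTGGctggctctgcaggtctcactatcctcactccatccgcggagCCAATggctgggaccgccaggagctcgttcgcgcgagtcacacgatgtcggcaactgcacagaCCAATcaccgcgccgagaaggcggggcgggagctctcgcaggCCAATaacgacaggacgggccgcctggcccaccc
SREBF2: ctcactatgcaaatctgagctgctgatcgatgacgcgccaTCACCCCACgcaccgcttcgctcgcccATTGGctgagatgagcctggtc

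The sterol regulatory element was searched as TCACNCCAC on both strands and was found in 1 of the 30 matched genes, SREBF2, as TCACCCCAC starting at position -133 from the start. The same letters were found in 0.875% of the 27305 promoters searched. The CCAAT box, a frequent partner element of sterol-regulated promoters, was found in 19 of the 30 genes against 33.0% of all promoters. It was in 10 of the 14 matched genes that rose in 786-O under sorafenib and in 9 of the 14 matched genes that were tested there and did not. MSMO1 held 4 CCAAT boxes, SCD and HMGCS1 2 each, and INSIG1 1. Over all listed starts CCAAT was in 22 of the 30 genes against 37.0% of all genes, and the sterol element still in 1. The GC box GGGCGG was found in 27 of the 30 genes against 42.3% of all promoters, and ACGTG, the core of the hypoxia response element, in 6 of the 30 against 18.7%. The motifs were counted independently of each other, so that matches of different motifs may share bases. A match is a description of the letters in this window and was not tested as a binding site, and no match says only that the letters are not in this window.

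In resistant 786-O tumours of the sorafenib arm, 18 of the 32 genes were higher than in untreated tumours and 1, TM7SF2, was lower. Of all genes tested in this comparison 15.2% passed the threshold, 5.97% higher and 9.18% lower. The rises covered every step group, with 2 of 3 regulators, 4 of 7 mevalonate pathway enzymes, 5 of 9 enzymes from squalene to cholesterol, 2 of 7 enzymes of fatty acid synthesis and 5 of 6 lipid droplet and transport genes. The median difference of the 32 genes was 0.57, against -0.05 over all genes tested, and 30 of the 32 lay above 0. As the list was chosen with earlier results of these data known, its comparison with all genes is a description and no independent test. In the same resistant tumours the summed signal of fibroblast and pericyte markers was lower, 1588 to 3179 against 5813 to 9091 in untreated tumours. Its part in these differences was not tested. The brightest of these markers were COL3A1, COL1A1 and COL1A2, with medians of 1695, 598 and 437 over the 28 arrays. These 3 and RGS5 were above the filter limit on 28 arrays, DCN on 17, and LUM and PDGFRB on 1 each. In bulk tumours fewer cells of a type and less RNA per cell cannot be told apart. Nor can signal of the human tumour cells be told from that of the mouse stroma. In 786-O tumours of the sunitinib arm 1 of the 32 genes passed, SCD, which was higher, where 5.06% of all genes passed (2.22% higher and 2.84% lower), and the median was 0.06. In A498 tumours of the sorafenib arm 1 passed, the mevalonate kinase MVK, which was lower, where 6.34% of all genes passed (2.93% higher and 3.40% lower), and the median was 0.07. The last 2 counts are no higher than the background of their comparisons, and the medians of all genes there were -0.01 and 0.03.

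**Figure D1:**
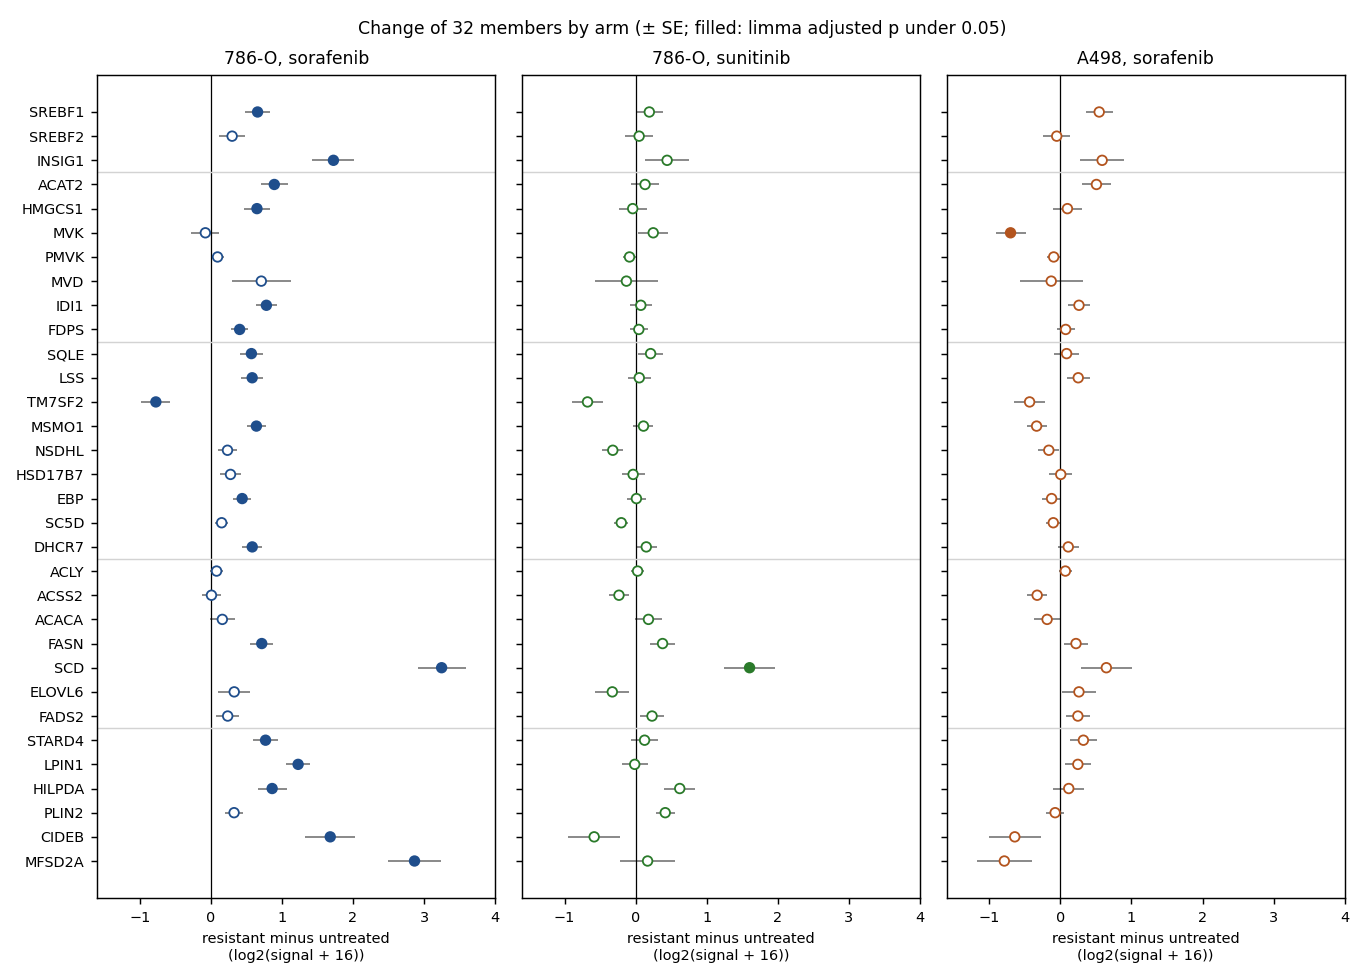
Difference between resistant and untreated tumours for the 32 genes (rows, grouped by role) in the 3 arms (panels), on the log2(signal + 16) scale with standard errors as bars; filled points passed limma at an adjusted p under 0.05. In 786-O under sorafenib 18 points are filled to the right of 0 and 1 to the left, while each of the other arms has 1 filled point.

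Among the regulators, SREBF1, which encodes the SREBP that favours fatty acid genes, had signals of 169, 192, 255, 187 and 246 in the 5 untreated 786-O tumours of the sorafenib arm and 316, 305, 276, 585 and 270 in the 5 resistant ones. All resistant tumours lay above all untreated ones, and resistant tumour 4 stood well above the other resistant tumours. The difference was 0.66 ± 0.18 (adjusted p = 0.0139), and it was 0.46 without resistant tumour 4 (adjusted p = 0.0511). With the mean of both SREBF1 probe sets, the other of which was below the filter limit on every array, it was 0.35 (adjusted p = 0.374). SREBF2, which encodes the SREBP that favours cholesterol genes, had signals of 347, 301, 386, 338 and 333 untreated and 338, 247, 420.4, 714 and 527 resistant. These groups overlapped, with resistant tumour 2 at the bottom and resistant tumour 4 at the top. The difference of SREBF2 was 0.30 ± 0.18 (adjusted p = 0.295), and it was 0.48 without resistant tumour 2 (adjusted p = 0.0459) and 0.11 without resistant tumour 4 (adjusted p = 0.710).

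INSIG1, the endoplasmic reticulum protein that retains SREBPs and is itself an SREBP target, rose the most among the regulators. Its signals were 1443, 1114, 865, 1179.5 and 1453 in untreated and 2867, 2462, 3147, 9581 and 4600.3 in resistant 786-O tumours of the sorafenib arm. Every resistant tumour exceeded every untreated one, by a wide gap in tumour 4. The difference was 1.72 ± 0.29 (adjusted p = 2.07e-04), and 2 further INSIG1 probe sets gave 1.88 and 1.45. In the sunitinib arm INSIG1 means were 1336 ± 362 untreated and 1809 ± 510 resistant (SD, n = 5 and 4; 0.44 ± 0.31, adjusted p = 0.482). In A498 they were 895 ± 172 and 1377 ± 408 (SD, n = 4 and 5; 0.59 ± 0.31, adjusted p = 0.291).

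Other proteins of the SREBP switch did not pass the test in any arm. Of 9 such genes listed, 6 were tested, SCAP, MBTPS1, MBTPS2, INSIG2, ERLIN1 and ERLIN2, which escort, cut or retain SREBPs. By limma 0 of 6 passed in each of the 3 arms. Of all genes 15.2% passed in the 786-O sorafenib, 5.06% in the sunitinib and 6.34% in the A498 arm. A count of 0 among 6 genes is not set apart from these shares. In 786-O under sorafenib the differences of the 6 genes ran from -0.26 to 0.31 with a median of -0.14.

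In the mevalonate pathway, ACAT2, the cytosolic thiolase that joins acetyl-CoA units, had signals of 771, 822, 679.8, 999.8 and 881 in untreated and 1152, 1172, 1091, 2544 and 2320.5 in resistant 786-O tumours of the sorafenib arm. The groups did not overlap, and resistant tumours 4 and 5 were the highest. The difference was 0.89 ± 0.19 (adjusted p = 0.00180). IDI1, which isomerises isopentenyl diphosphate, had signals of 1761, 1369, 1532, 1362 and 1631 untreated and 2199, 2507, 2032, 4005 and 2789.5 resistant. Again no untreated tumour reached a resistant one (0.78 ± 0.14, adjusted p = 4.59e-04). A further IDI1 probe set gave 0.73, while the remaining IDI1 probe sets gave -0.04 and 0.05 and did not pass. HMGCS1, the HMG-CoA synthase, also rose (0.65 ± 0.19, adjusted p = 0.0201) but with overlap between the groups, from 692 to 904 in untreated to 867 to 2581 in resistant tumours. Its difference was 0.38 without resistant tumour 4 (adjusted p = 0.0408). FDPS, the farnesyl diphosphate synthase, rose by less (0.40 ± 0.12, adjusted p = 0.0232). It missed the threshold without untreated tumour 3 (adjusted p = 0.0527), resistant tumour 4 (0.0885) or resistant tumour 5 (0.0760). The kinases MVK (-0.08 ± 0.20) and PMVK (0.09 ± 0.08) and the decarboxylase MVD (0.71 ± 0.42) did not pass. MVD was dim, above the filter limit of 89.4 in 3 of 5 tumours of either group, and its spread was wide.

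Between squalene and cholesterol, 5 of the 9 measured enzymes rose in this arm. SQLE, the squalene epoxidase, went from a mean of 2595 ± 153 to 4001 ± 1282 (SD, n = 5 and 5; 0.57 ± 0.17, adjusted p = 0.0215). LSS, the lanosterol synthase, went from 1128 ± 50.9 to 1775 ± 661 (0.58 ± 0.15, adjusted p = 0.0115). MSMO1, the sterol C4 methyl oxidase, went from 6445 ± 422 to 10347 ± 3021 (0.64 ± 0.13, adjusted p = 0.00150). In all 3 the groups did not overlap, and resistant tumours 4 and 5 were the highest. EBP, the sterol isomerase, rose without overlap (0.44 ± 0.13, adjusted p = 0.0232), and DHCR7, the last enzyme of the Kandutsch-Russell branch, rose with overlap (0.58 ± 0.14, adjusted p = 0.00520). SQLE and EBP missed the threshold without resistant tumour 4 (adjusted p = 0.0830 and 0.0879) or 5 (0.0609 and 0.0697), and EBP also without untreated tumour 3 (0.0612). With the mean of their probe sets LSS and EBP missed it too (adjusted p = 0.0867 and 0.112). NSDHL (0.23 ± 0.14), HSD17B7 (0.28 ± 0.15) and SC5D (0.15 ± 0.10), which remove C4 methyl groups, reduce the C3 ketone and desaturate C5, did not pass.

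TM7SF2, a sterol C14 reductase, was the 1 gene of the 32 that fell in this arm. Its signals were 248, 256, 342, 226 and 327 in untreated and 157, 155, 204, 129.6 and 139 in resistant 786-O tumours. All resistant tumours lay below all untreated ones, and tumour 4, where most of the other genes were highest, had the lowest value. The difference was -0.77 ± 0.20 (adjusted p = 0.0107). In the sunitinib arm its resistant tumours also all lay below the untreated ones, at 203 to 232 against 242 to 495, with a difference of -0.68 ± 0.22 that did not pass (adjusted p = 0.0686) but passed without untreated tumour 5 (0.0329). In A498 the difference was -0.43 ± 0.22 (adjusted p = 0.253), with TM7SF2 above the filter limit in 2 of 4 untreated and 1 of 5 resistant tumours.

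In fatty acid synthesis, SCD, the desaturase that makes oleate from stearate, had the largest change of the 32 genes in 786-O. Its signals were 634, 388, 312, 194 and 269 in untreated and 1904, 2556, 3247, 5022 and 4841 in resistant tumours of the sorafenib arm. Every resistant tumour lay far above every untreated one, and tumours 4 and 5 were highest. The difference was 3.24 ± 0.34 (adjusted p = 4.18e-07). In the sunitinib arm SCD signals were 519.8, 409.5, 738, 258 and 653 untreated and 893, 2443, 2727 and 857 resistant. Here too the groups did not overlap, but resistant tumours 1 and 4 lay close to the highest untreated tumour and tumours 2 and 3 far above it. The difference was 1.60 ± 0.36 (adjusted p = 0.00979), and 1.32 without resistant tumour 3 (adjusted p = 0.0570).

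A498 tumours had high SCD signals without treatment, 7715, 6384, 5985 and 7709, and their resistant tumours had 8929.7, 12407, 11604, 11153 and 10337. These groups did not overlap either, and the difference of 0.65 ± 0.36 did not pass (adjusted p = 0.311). It did with a fit to the A498 arrays alone (adjusted p = 0.0479). Further SCD probe sets gave differences of 1.66, 2.16 and 0.75 in the 786-O sorafenib arm and 1.14, 1.92 and 1.52 in the sunitinib arm. The last value of each 786-O arm did not pass. In A498 these probe sets gave 0.37, 0.44 and 0.27, and none passed (limma adjusted p = 0.536, 0.589 and 0.848 over all probe sets tested).

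**Figure D2:**
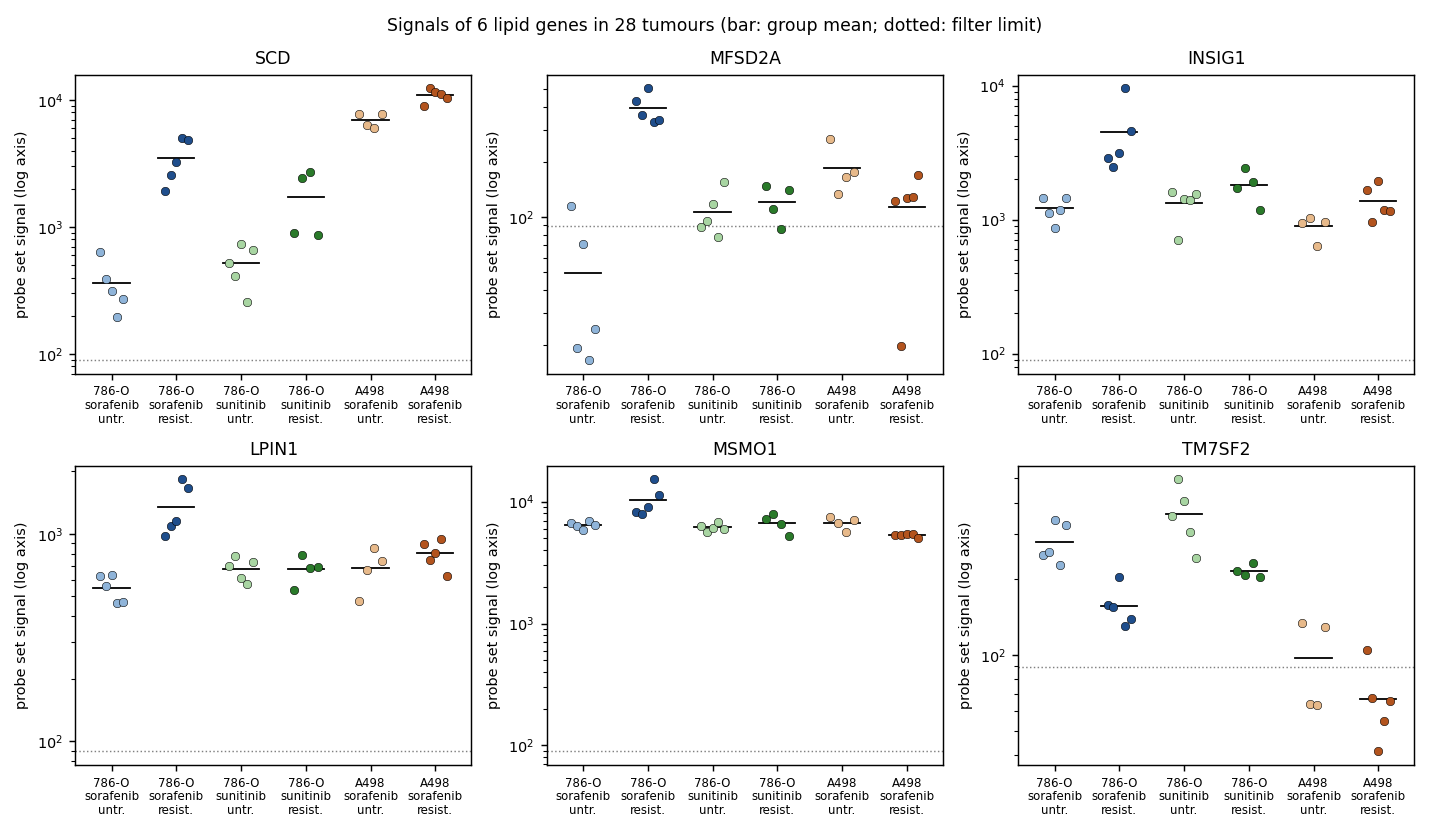
Probe set signals (log axis) of 6 genes in each of the 28 tumours, by group; bars are arithmetic group means and the dotted line is the filter limit of 89.4. SCD is separated between untreated and resistant tumours in all 3 arms, whereas MFSD2A, INSIG1 and LPIN1 are separated only within the 786-O sorafenib arm, and TM7SF2 is lower in the resistant tumours of both 786-O arms.

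FASN, the fatty acid synthase itself, had signals of 379, 329, 293, 319 and 313 in untreated and 497.8, 462, 491, 858 and 492 in resistant 786-O tumours of the sorafenib arm. No untreated tumour reached a resistant one, and resistant tumour 4 stood apart high. The difference was 0.71 ± 0.16 (adjusted p = 0.00370). The enzymes that feed it had differences close to 0. ACLY, which makes acetyl-CoA from citrate, differed by 0.08 ± 0.09, ACSS2, which makes it from acetate, by 0.01 ± 0.13, and ACACA, the acetyl-CoA carboxylase, by 0.16 ± 0.18, and none of these passed. The elongase ELOVL6 (0.33 ± 0.22) and the desaturase FADS2 (0.24 ± 0.16) did not pass either. Another ELOVL6 probe set did, at 0.71 (limma adjusted p = 6.59e-05 over all probe sets tested), and a further one, at 0.31, did not.

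Of the lipid droplet and transport genes, MFSD2A, which carries lysophospholipids into cells, had signals of 115, 19.3, 70.9, 16.5 and 24.3 in untreated and 429.8, 362, 505, 329.7 and 339 in resistant 786-O tumours of the sorafenib arm. All resistant tumours were far above all untreated ones, and in contrast to most of the genes tumour 3 was highest and tumour 4 lowest. The difference was 2.86 ± 0.37 (adjusted p = 6.05e-06), with 1 of 5 untreated tumours above the filter limit, so its size is uncertain. A dimmer MFSD2A probe set gave 0.16 and did not pass. CIDEB, a protein of lipid droplets and lipoprotein loading, had signals of 30.9, 18.3, 35.5, 22.2 and 50.1 untreated and 139, 121, 226, 68.6 and 145 resistant. The groups did not overlap, and here also tumour 3 was highest and tumour 4 lowest. The difference was 1.68 ± 0.35 (adjusted p = 0.00150), with 0 of 5 untreated and 4 of 5 resistant tumours above the filter limit.

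LPIN1, the phosphatidate phosphatase of triglyceride synthesis, had signals of 624, 562, 637, 463 and 472 in untreated and 976, 1090.4, 1149, 1831 and 1661 in resistant tumours of the same arm. The groups did not overlap, and the order of the resistant tumours followed that of the sterol genes, with 4 and 5 highest. The difference was 1.23 ± 0.17 (adjusted p = 1.59e-05). HILPDA, a droplet protein that inhibits lipolysis and is a known hypoxia target, had signals of 3253, 3763, 3533, 2516 and 1925 untreated and 4988, 5134, 5008, 6306 and 5196 resistant. No untreated tumour reached a resistant one (0.86 ± 0.20, adjusted p = 0.00445).

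STARD4, which moves cholesterol between membranes, had signals of 978, 921, 972, 1035 and 686 untreated and 1038, 1220.1, 1528, 2409 and 1979 resistant. The groups did not overlap, although resistant tumour 1 lay just above the highest untreated tumour, and untreated tumour 5 stood apart low (0.77 ± 0.18, adjusted p = 0.00416). PLIN2, the main coat protein of droplets in these carcinomas, did not pass, with means of 15615 ± 2227 and 19437 ± 956 (SD, n = 5 and 5; 0.33 ± 0.12, adjusted p = 0.0758). PLIN2 passed without untreated tumour 1 (adjusted p = 0.0453). It also passed with quantile normalization (0.00912), median centring (0.0287) or array weights (0.0491), so its call depends on the processing.

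The size of the shift differed between the resistant 786-O tumours of the sorafenib arm. Resistant tumour 4 had the highest signal in 15 of the 18 genes that rose, and tumours 4 or 5 held the highest value in all but CIDEB and MFSD2A. Tumour 1 was lowest in 7 of the 18 and tumour 2 in 6. Measured against the mean of the untreated tumours, the median over the 32 genes was 0.23, 0.30, 0.32, 0.96 and 0.69 in resistant tumours 1 to 5. The number of the 32 genes above the highest untreated tumour was 19, 22, 21, 29 and 25, and 1 or 2 genes lay below the lowest one. Of all genes tested 18.1% to 23.5% lay above and 25.7% to 29.0% below in these tumours. An untreated tumour of this arm set against the other 4 had 2 to 10 of the 32 above, where 12.1% to 33.2% of all genes lay above, and medians from -0.01 to 0.11. The median was above 0 in each resistant tumour and largest in tumours 4 and 5, the same 2 that had the highest ACTB differences of their group, whose part in this was not tested. Without resistant tumour 4, 15 of the 32 genes passed, 14 of the 18 risen genes among them, where 11.4% of all genes passed, and the median was 0.39. Without this tumour and untreated tumour 5, the arrays with the highest ACTB difference, 12 of the 32 passed, all higher, where 8.93% of all genes passed. TM7SF2 (adjusted p = 0.0772), HILPDA (0.0540), STARD4 (0.0587) and DHCR7 (0.0512) then missed the threshold, as did FDPS (0.104), SQLE (0.138) and EBP (0.0997). In the sunitinib arm the resistant tumours had 7, 13, 12 and 6 of the 32 genes above the highest untreated tumour, with medians of 0.14, 0.13, 0.14 and -0.07, where 16.6% to 21.8% of all genes lay above. They had 4, 4, 7 and 7 below the lowest untreated tumour, where 19.1% to 23.1% of all genes lay below. The untreated tumours of this arm had 5 to 9 above the other 4, where 15.6% to 25.2% of all genes lay above. In A498 the resistant tumours had 12, 8, 9, 8 and 11 above and 7, 11, 9, 9 and 6 below, with medians from -0.04 to 0.11. Of all genes 22.2% to 29.1% lay above and 20.6% to 26.3% below there. The untreated A498 tumours had 12, 7, 7 and 6 above the other 3, where 16.4% to 34.5% of all genes lay above.

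**Figure D3:**
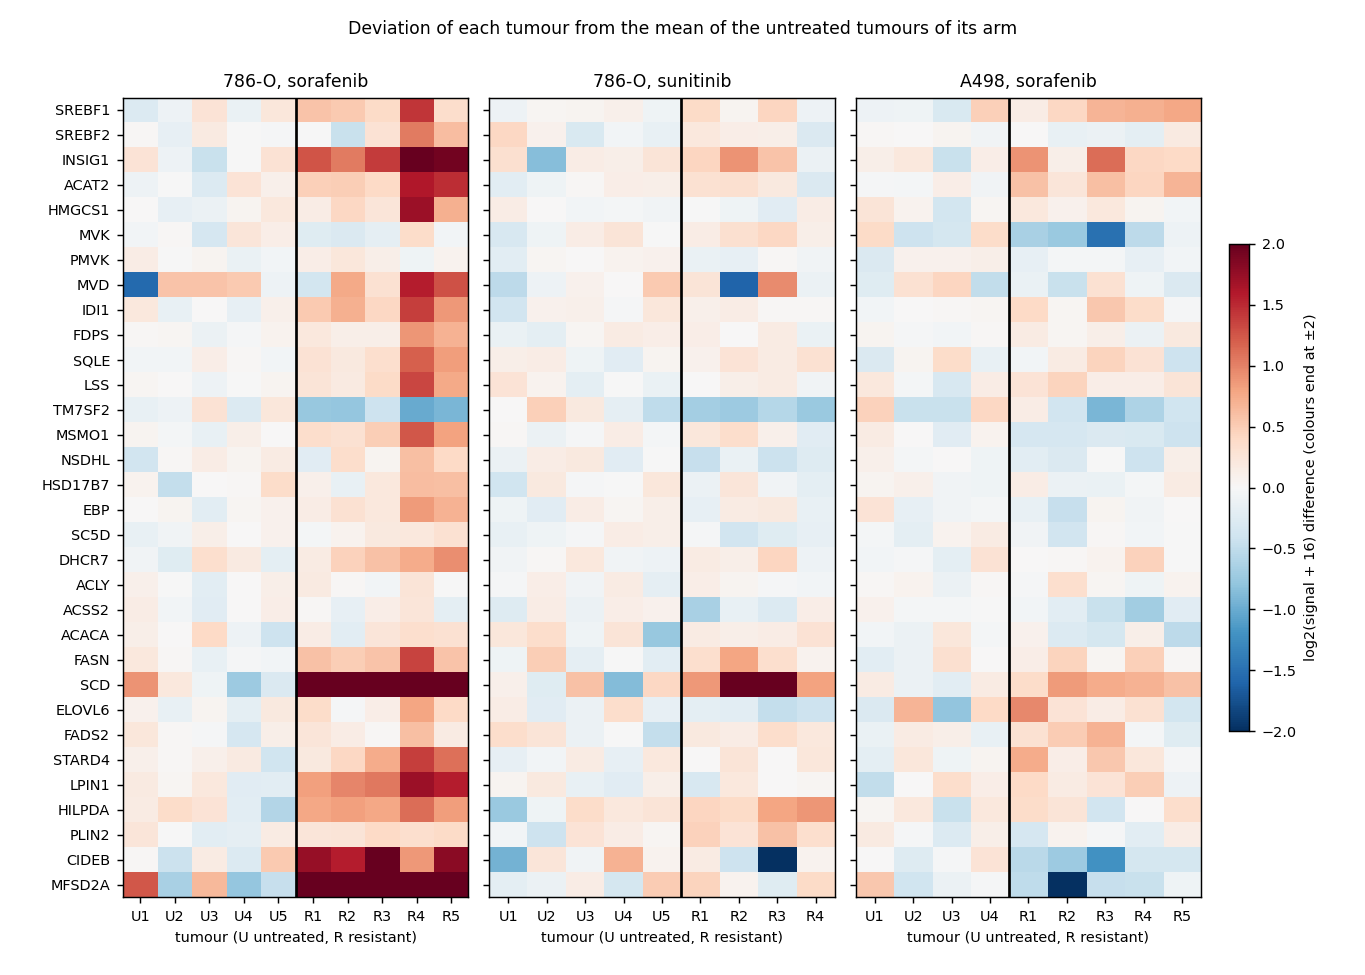
Deviation of each tumour from the mean of the untreated tumours of its arm, for the 32 genes (rows) and the tumours of the 3 arms (columns; U untreated, R resistant), as a colour from -2 to 2 on the log2(signal + 16) scale. In 786-O under sorafenib the red of the sterol genes is strongest in R4 and R5, whereas MFSD2A and SCD are at the end of the scale in all 5 resistant tumours.

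In resistant 786-O tumours of the sunitinib arm, the 31 genes other than SCD did not pass, with differences from -0.68 (TM7SF2) to 0.62 (HILPDA). Mevalonate pathway genes had a median of 0.04 and genes from squalene to cholesterol one of 0.01. The droplet genes HILPDA and PLIN2 had resistant tumours all above the untreated ones. HILPDA lay at 1911 to 4169.5 untreated and 4182 to 5957 resistant (0.62 ± 0.21, adjusted p = 0.0983). PLIN2 lay at 12832 to 20793 and 20824 to 25708 (0.42 ± 0.13, adjusted p = 0.0649), and passed without untreated tumour 3 (0.0416). It also passed with the stricter filter (0.0424), median centring (0.0387) or a trended robust variance (0.0375). Groups were fully separated for 4 of the 32 genes, SCD, HILPDA and PLIN2 with all resistant tumours above and TM7SF2 with all below, where 8.46% of all genes tested were separated (4.12% above and 4.34% below). In the sorafenib arm of 786-O, 16 of the 32 were separated with all resistant tumours above and 1 with all below, where 12.5% of all genes were (5.08% above and 7.40% below). INSIG1 (0.44) and FASN (0.38) overlapped between the groups and did not pass. INSIG1 was 0.23 without untreated tumour 2, whose signal stood apart low, and 0.29 without resistant tumour 2, and FASN was 0.24 without resistant tumour 2.

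In resistant A498 tumours, MVK, which phosphorylates mevalonate, was lower at 557 to 1473 than in untreated tumours at 1187 to 2083, with overlap (-0.70 ± 0.21, adjusted p = 0.0456). Without any 1 of untreated tumours 1 and 4 or resistant tumours 1 to 4 it did not pass, with an adjusted p of up to 0.169. With the mean of its probe sets MVK was -0.34 (adjusted p = 0.393). Groups were separated for 5 of the 32 genes, 2 above and 3 below, where 9.14% of all genes were (4.14% above and 5.00% below). SCD and ACAT2 (0.51 ± 0.20, adjusted p = 0.135) were the 2 with all resistant tumours above. MSMO1 (-0.33 ± 0.14), ACSS2 (-0.33 ± 0.14) and CIDEB (-0.64 ± 0.37) had all resistant tumours below and did not pass. SREBF1 had a difference of 0.55 ± 0.19 that did not pass (adjusted p = 0.0869) but did without resistant tumour 1 (0.0417) or untreated tumour 4 (0.0384). The remaining 25 genes had differences from -0.79 (MFSD2A) to 0.59 (INSIG1). MFSD2A was -0.37 without resistant tumour 2, whose signal stood apart low.

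The changes were then compared between arms directly, each arm having untreated tumours of its own. Under sorafenib against sunitinib in 786-O, 3 of the 32 genes passed, LPIN1, CIDEB and MFSD2A, all with the larger change under sorafenib, where 0.949% of all genes passed, 0.442% in this direction and 0.507% in the other. MFSD2A, the lysophospholipid carrier, changed by 2.70 more (95% interval 1.59 to 3.80, adjusted p = 0.0132). CIDEB changed by 2.26 more (95% interval 1.22 to 3.31, adjusted p = 0.0303). LPIN1 changed by 1.24 more (95% interval 0.73 to 1.75, adjusted p = 0.0140). With the mean of their probe sets LPIN1 and MFSD2A missed the threshold (adjusted p = 0.0711 and 0.0836). The untreated tumours of the 2 arms were not at the same signals: CIDEB had means of 31.4 ± 12.5 in the sorafenib and 87.8 ± 38.9 in the sunitinib arm, and MFSD2A 49.2 ± 43.0 and 106 ± 30.4 (SD, n = 5 and 5). Resistant tumours of the 2 arms had MFSD2A means of 393 ± 73.6 and 121 ± 28.3 (n = 5 and 4). The CIDEB difference missed the threshold without untreated tumours 2 or 4 or resistant tumours 3 or 5 of the sorafenib arm, or untreated tumours 4 or 5 of the sunitinib arm, with an adjusted p of up to 0.0596. SCD changed by 1.64 more under sorafenib (95% interval 0.63 to 2.65, adjusted p = 0.104), and INSIG1 by 1.28 more (95% interval 0.39 to 2.17, adjusted p = 0.151). Neither passed. Over the 32 genes the median difference between these arms was 0.43 and 28 lay above 0, against a median of -0.03 over all genes. The names of the 10 samples of the 786-O sorafenib arm begin with another number than those of the 18 samples of the other arms. The labels do not say what this number marks, so it cannot be told apart from the arm.

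Between the lines under sorafenib, 5 of the 32 genes passed, all with the more negative or smaller change in A498, where 5.19% of all genes passed, 3.02% with a positive and 2.17% with a negative difference. The change in A498 minus that in 786-O was -3.65 for MFSD2A (95% interval -4.75 to -2.55, adjusted p = 3.55e-04). It was -2.60 for SCD (95% interval -3.61 to -1.59, adjusted p = 0.00281), whose signals in A498 were already above all 786-O tumours before treatment. It was -2.32 for CIDEB (95% interval -3.37 to -1.27, adjusted p = 0.00915) and -0.98 for LPIN1 (95% interval -1.49 to -0.47, adjusted p = 0.0207). Without the 2 arrays of highest ACTB difference LPIN1 missed the threshold here (-0.81, adjusted p = 0.0712) and between the drugs (1.07, adjusted p = 0.0553). For the sterol methyl oxidase MSMO1 it was -0.97 (95% interval -1.37 to -0.58, adjusted p = 0.00467). MSMO1 had means of 6722 ± 768 in untreated and 5304 ± 175 in resistant A498 tumours. INSIG1 changed by -1.14 in the same comparison (-2.02 to -0.25, adjusted p = 0.129) and SREBF1 by -0.11 (-0.65 to 0.43), and neither passed. Some genes passed between the lines only under other processing. These were PLIN2 with quantile normalization (-0.67, adjusted p = 0.00963) and DHCR7 with the mean of its probe sets (-0.82, 0.0478). EBP did so with median centring (-0.71, 0.0270) or the GAPDH covariate (-0.61, 0.0459). The median over the 32 genes was -0.42, against 0.07 over all genes. As a description, the changes of the 32 genes in the 786-O sorafenib and sunitinib arms had Pearson r = 0.58 and Spearman rho = 0.37 (0.41 and 0.33 over all 13808 genes). Those in the 786-O and A498 sorafenib arms had r = 0.19 and rho = 0.47 (0.22 and 0.19 over all genes). Those in the 786-O sunitinib and A498 sorafenib arms, which share neither line nor drug, had r = 0.49 and rho = 0.41 (0.15 and 0.12 over all genes). These points are genes that share arrays and are not independent replicates.

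**Figure D4:**
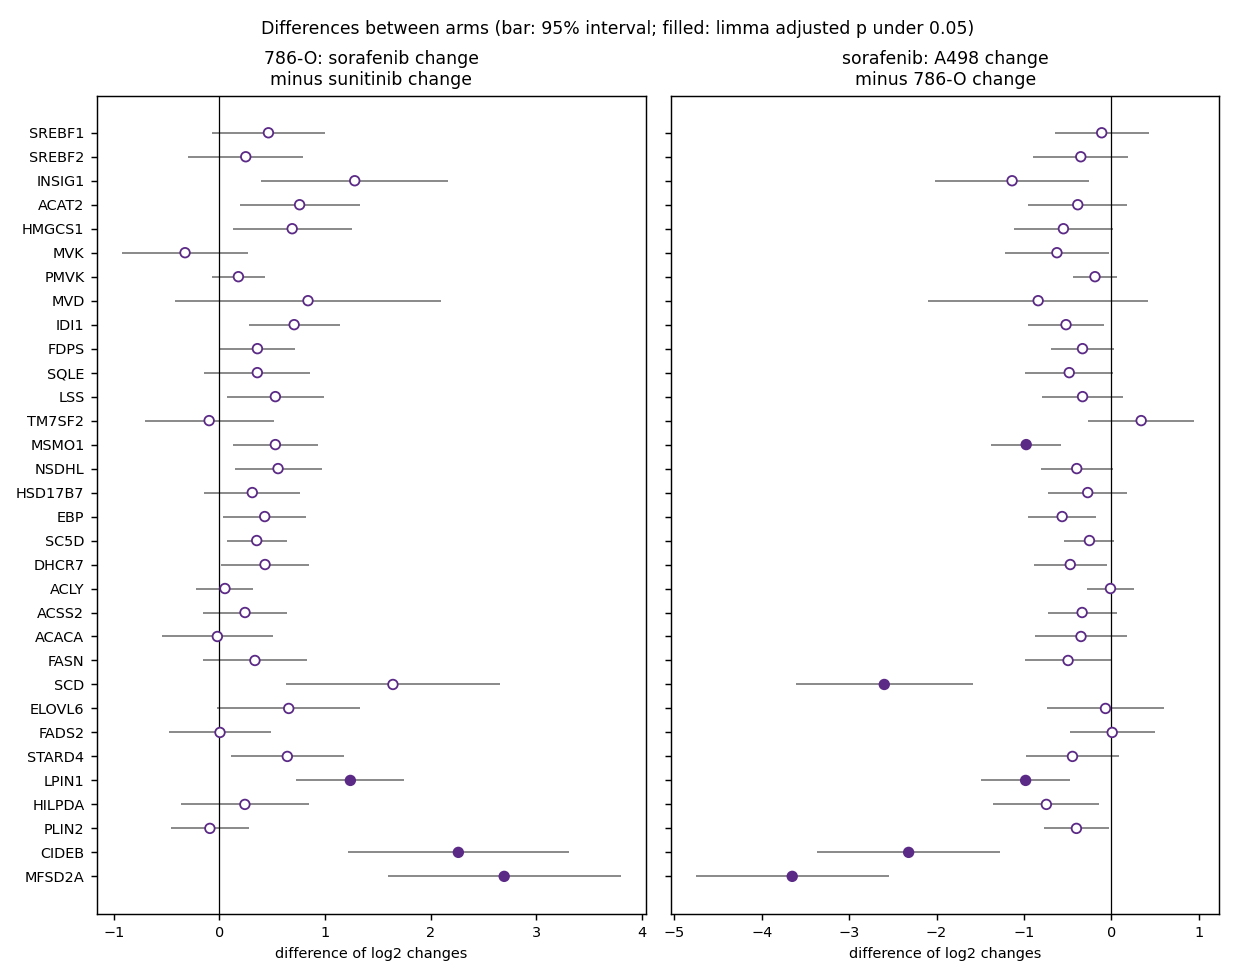
Difference between the changes of 2 arms for the 32 genes (rows), with 95% intervals as bars, on the log2(signal + 16) scale; filled points passed limma at an adjusted p under 0.05. MFSD2A, CIDEB and LPIN1 are filled in both panels, to the right for sorafenib over sunitinib and to the left for A498 against 786-O, and SCD and MSMO1 only in the panel of the lines.

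Without treatment the lines differed in many of these genes. Untreated A498 tumours were compared with the untreated 786-O tumours of the sunitinib arm, and 19 of the 32 genes passed, 10 higher and 9 lower in A498. Of all genes 58.0% passed, 27.3% higher and 30.6% lower, so this share is close to the background. Differences here are A498 minus 786-O on the same log2 scale, with a median of -0.07 over the 32 genes and -0.06 over all. CIDEB was 4.28 ± 0.37 higher (adjusted p = 3.30e-10), with 1569 to 2273 in A498 against 34.4 to 142 in 786-O. SCD was 3.79 ± 0.36 higher (adjusted p = 1.52e-09). MVK (1.30), HILPDA (1.11), PMVK (1.08) and ACSS2 (1.05) were also higher by more than 1. FADS2 (-1.87), TM7SF2 (-1.76), ELOVL6 (-1.65) and STARD4 (-1.33) were lower by more than 1. EBP (0.89), PLIN2 (0.53), FDPS (0.46) and ACLY (0.22) were higher by less, and DHCR7 (-0.80), SREBF1 (-0.75), SC5D (-0.69), LSS (-0.67) and IDI1 (-0.39) lower by less. EBP changed direction with the mean of its probe sets, to -0.13 (adjusted p = 0.456). With the same mean SREBF1 was -0.15 (adjusted p = 0.636) and SC5D -0.40 (adjusted p = 0.239). Without _x_at and _s_at probe sets SC5D was -0.11 (adjusted p = 0.881), EBP 0.30 (0.179) and IDI1 -0.00124 (0.997). IDI1 and ACLY each missed the threshold when 1 of several tumours was left out (adjusted p up to 0.0799 and 0.130, both without untreated 786-O tumour 5). INSIG1 (-0.54), NSDHL (-0.32) and SQLE (-0.37) did not pass, and each did without 1 tumour, 786-O tumour 2, 786-O tumour 4 and A498 tumour 3 (adjusted p = 0.0411, 0.0385 and 0.0278).

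Genes of neighbouring lipid routes were called in both directions. Of 85 such genes listed 65 were tested, and in 786-O under sorafenib 11 were higher and 7 lower, with a median of -0.000982 beside -0.05 for all genes. Of all genes tested there 5.97% were higher and 9.18% lower, so the falls were near the background. In the sunitinib arm 3 of the 65 were higher and 0 lower, where 5.06% of all genes passed, 2.22% higher and 2.84% lower. In A498 2 of the 65 were higher, LRP8 and NPC1, and 6 lower, where 6.34% of all genes passed, 2.93% higher and 3.40% lower.

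Genes of cholesterol uptake, storage and efflux gave 5 rises and 1 fall among 10 tested in 786-O under sorafenib. LRP8, a lipoprotein receptor, went from 416 ± 72.6 to 1104 ± 327 (SD, n = 5 and 5; 1.35 ± 0.17, adjusted p = 6.43e-06). ABCA1, which exports cholesterol, rose by 1.09 ± 0.27 (adjusted p = 0.00765), and missed the threshold with the mean of its probe sets (adjusted p = 0.0934). SCARB1, the HDL receptor, rose by 0.89 ± 0.15 (adjusted p = 1.28e-04). NPC1, which releases cholesterol from lysosomes together with NPC2, rose by 0.76 ± 0.12 (adjusted p = 1.21e-04) and NPC2 by 0.50 ± 0.09. NR1H3, the sterol-sensing liver X receptor alpha, fell (-0.46 ± 0.14, adjusted p = 0.0279). SCARB1 also rose in the sunitinib arm (0.89 ± 0.15, adjusted p = 0.00176), as did NPC2 (0.39 ± 0.10). LRP8 also rose in A498 (0.76 ± 0.18, adjusted p = 0.0138), but missed the threshold there without untreated tumour 1 (adjusted p = 0.0529).

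Among droplet and lipolysis genes, G0S2, an inhibitor of the triglyceride lipase ATGL, went from 768 ± 159 to 2826 ± 583 in 786-O under sorafenib (SD, n = 5 and 5; 1.86 ± 0.21, adjusted p = 9.13e-07). With PLIN3 (0.43) and MGLL (0.45) it made 3 rises and 0 falls among 8 tested. In A498 ABHD5, the activator of ATGL, fell (-0.67 ± 0.15, adjusted p = 0.00753), but was -0.32 with the mean of its probe sets (adjusted p = 0.185). Among PPAR targets and fatty acid oxidation genes, 2 rose and 3 fell of 11 tested in 786-O under sorafenib. ANGPTL4, a secreted inhibitor of lipoprotein lipase, rose by 2.65 ± 0.33 (adjusted p = 4.04e-06), and PPARA by 0.34 ± 0.12. CPT1A, which admits fatty acids to mitochondria, fell from 824 ± 161 to 379 ± 65.4 (-1.08 ± 0.15, adjusted p = 1.84e-05), and CD36, a fatty acid transporter, fell from 229 ± 62.4 to 77.2 ± 36.8 (-1.48 ± 0.31, adjusted p = 0.00150). ACADVL, of fatty acid oxidation, fell in 786-O (-0.48 ± 0.10) and in A498 (-0.37 ± 0.11) under sorafenib. ANGPTL4 also rose under sunitinib (1.29 ± 0.35, adjusted p = 0.0304), and missed the threshold without any 1 of untreated tumours 2 and 3 or resistant tumours 3 and 4 (adjusted p up to 0.129).

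The acyl-CoA synthetase ACSL5 fell in 786-O under sorafenib (-1.48 ± 0.34, adjusted p = 0.00370), as 1 of 9 tested genes of fatty acid activation and triglyceride synthesis. In A498 the carnitine transferase CPT2 (-0.80 ± 0.17, adjusted p = 0.00659), the elongase ELOVL7 (-0.73 ± 0.14, adjusted p = 0.00287) and DGAT1, which makes triglycerides (-0.60 ± 0.15, adjusted p = 0.0136), fell. PDSS1, of ubiquinone synthesis, fell too (-0.51 ± 0.13, adjusted p = 0.0201), but was 0.0326 with the mean of its probe sets. DGAT1 missed the threshold without untreated tumour 1 (adjusted p = 0.0713), and PDSS1 without untreated tumour 1 or resistant tumours 2 or 3 (adjusted p up to 0.108). With a fit to the A498 arrays alone, ABHD5, CPT2, ELOVL7, DGAT1 and PDSS1 all missed the threshold (adjusted p = 0.0658, 0.0802, 0.0794, 0.110 and 0.152).

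**Figure D5:**
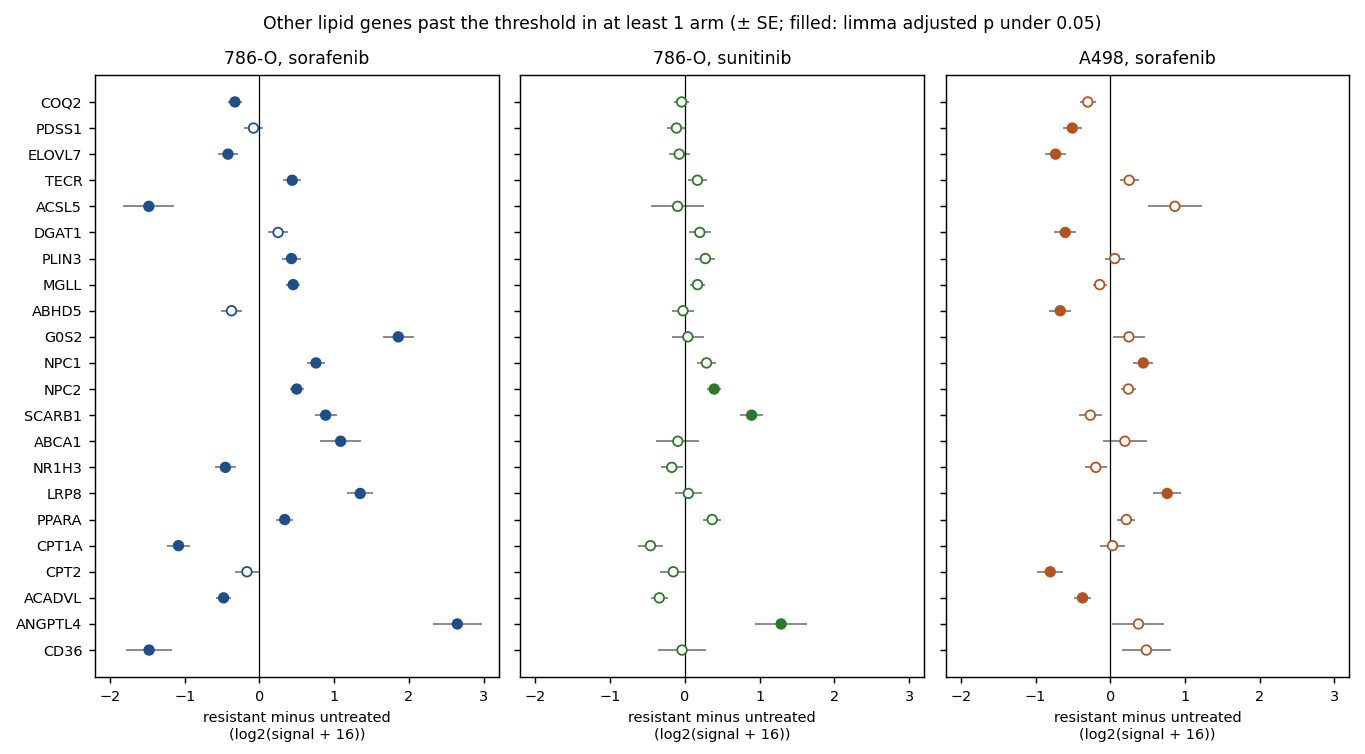
Difference between resistant and untreated tumours for the neighbouring lipid genes that passed in at least 1 arm (rows) in the 3 arms (panels), on the log2(signal + 16) scale with standard errors as bars; filled points passed limma at an adjusted p under 0.05. In 786-O under sorafenib 11 points are filled to the right, led by ANGPTL4 and G0S2, and 7 to the left, led by ACSL5 and CD36.

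Of 10 adipocyte markers 4 were past the filter and 0 passed the test in any arm. Of all genes 15.2%, 5.06% and 6.34% passed in the 786-O sorafenib, 786-O sunitinib and A498 arms. ADIPOQ, LEP and PLIN1 were above the filter limit on 0 of 28 arrays, ADIPOR2 on 28, CIDEC on 26, GPD1 on 14 and FABP4 on 9. The summed signal of the list in the 786-O sorafenib arm was 1930.3 to 2447 untreated and 1942 to 2202 resistant. ADIPOR2, at 1229 to 2129 over the 28 arrays, was the largest part of this sum. Of 7 fibroblast and pericyte markers 5 were tested, and 4, COL1A1, COL1A2, COL3A1 and RGS5, were lower in resistant 786-O tumours of the sorafenib arm. In the sunitinib arm 1 was lower (RGS5) and in A498 0. Of all genes tested 9.18%, 2.84% and 3.40% were lower in these 3 arms. Untreated and resistant sums were 2957 to 6402 and 1914 to 5073 in the sunitinib arm and 5725 to 14963 and 9363 to 23139 in A498. Of 8 macrophage markers 4 were tested and 2, MSR1 and AIF1, were lower in the 786-O sorafenib arm, where 9.18% of all genes were lower. The list summed there to 548 to 1000.4 untreated and 366 to 622 resistant. MSR1 was above the filter limit on 22 of 28 arrays, C1QB on 21, CSF1R on 20, AIF1 on 12, C1QA on 2, and CD163 and MARCO on 0. Of 6 hepatocyte markers 2 were tested, with FGB the brightest, and the list summed to 7265 to 18971 in untreated and 4465 to 8881 in resistant A498 tumours. Of 6 endothelial markers 1, PECAM1, was tested and did not pass in any arm. PECAM1 was above the filter limit on 22 of 28 arrays, CLDN5 on 2, and CDH5, KDR, VWF and TEK on 0. The part of these markers in the differences above was not tested.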

How the data were processed

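Total RNA of 28 frozen xenograft tumours was hybridised to Affymetrix HG-U133 Plus 2.0 arrays, 1 array per tumour. The deposited values are linear signal intensities per probe set, RMA and MAS5 being the tools listed, with no role given, in the submitters' processing notes. The 2% trimmed mean was 499.93 to 499.94 on every array and signals ran from 0.0875 to 64034.6, so the values are MAS5-like and scaled. Versions and scan dates are not given in the sources used here.

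Of 54675 probe sets, 62 were controls, 41091 carried 1 gene symbol, 1801 several and 11721 none. Symbols from the platform annotation were updated through Entrez numbers for 41037 probe sets. Each gene was read on the single-symbol probe set of highest mean over all arrays. Values were transformed as log2(signal + 16). Genes above the median of all values (89.4) on at least 4 arrays were tested, 13808 of 19775.

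One limma model (limma 3.58.1, R 4.3.3) with 6 group means was fitted to all 28 arrays, and p-values were Benjamini-Hochberg adjusted over the 13808 genes for each comparison, called under 0.05. The scripts were tested on simulated data. The array number limits precision: groups hold 4 or 5 arrays. Signals were given for each tumour for up to 12 called genes per arm whose groups did not overlap, taken by size, and for both SREBF genes. Genes of neighbouring routes were named if called with a difference of at least 0.5, and others only to complete a count, after their values were seen. The 35 genes, the neighbouring lists and the markers were chosen with earlier results of these data known. Alternatives were other offsets (1 and 64), filters, probe set rules, normalizations, variance models and left-out arrays. Promoters are RefSeq, GRCh38.p14.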

Additional observations from a re-analysis of the deposited data

Results flagged for a closer look

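Within groups of 4 or 5 tumours, 13 of 192 combinations of gene and group (6.77%) held a tumour whose gap to its nearest neighbour took an unusually large share of the group's range by Dixon's test, which chance gives in about 1 in 20. Resistant tumour 4 of the 786-O sorafenib arm was high in SREBF1 (585 against 270.0 to 316, share 0.798), FASN (858 against 462 to 497.8, 0.880) and HILPDA (6306 against 4988 to 5196, 0.826). In the untreated tumours of this arm, NSDHL was low in tumour 1 (649 against 863 to 959, 0.730), EBP in tumour 3 (799 against 931 to 985, 0.732) and STARD4 in tumour 5 (686 against 921 to 1035, 0.716). In the untreated sunitinib arm, INSIG1 was low in tumour 2 (706 against 1397 to 1602, 0.833) and PMVK in tumour 1 (1238 against 1441 to 1529, 0.719). In untreated A498, INSIG1 was low in tumour 3 (641 against 951 to 1024, 0.842) and PMVK in tumour 1 (2493 against 3227 to 3307, 0.914). In resistant A498, SC5D (818 against 1017 to 1084, 0.772) and MFSD2A (19.7 against 122 to 169, 0.820) were low in tumour 2, and DHCR7 was high in tumour 4 (408 against 290 to 309, 0.810).

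The change differed between arms by limma for LPIN1 (1.24), CIDEB (2.26) and MFSD2A (2.70), larger under sorafenib than under sunitinib in 786-O. It differed between A498 and 786-O under sorafenib for MSMO1 (-0.97), SCD (-2.60), LPIN1 (-0.98), CIDEB (-2.32) and MFSD2A (-3.65).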

How the results depend on the processing

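Over the alternatives, 2323 of 2394 values of single genes of the 32 kept their direction and side of the threshold, 38 lost and 32 gained the call, and 1 reversed; with each array left out in turn it was 2357 of 2400, with 34 lost and 9 gained. The 786-O sorafenib count of 19 genes was 12 without probe sets ending in _x_at or _s_at, where 20 of the 32 were tested, and 12 without the 2 arrays of highest ACTB difference. The sunitinib count of 1 was 2 with offset 64, the stricter filter, median centring or a trended robust variance, and 0 with the arrays of the comparison alone. It was also 0 without _x_at and _s_at probe sets, but SCD has only such probe sets here and could not be tested. The A498 count of 1 was 0 with offset 1, no filter or quantile normalization, and 2 with array weights, the GAPDH covariate or without the 2 ACTB arrays. In 2 settings the count stayed at 1 but MVK was replaced by a gene that rose. This was SCD with the A498 arrays alone (0.65, adjusted p = 0.0479) and IDI1 with the mean of probe sets (0.39, 0.0166). Genes whose change differed between the drugs were 3, and 1 with the mean of probe sets. Those that differed between the lines were 5, and 3 without _x_at and _s_at probe sets, where SCD and CIDEB could not be tested. The untreated lines differed in 19, and in 8 of the 20 tested without these probe sets. With each array left out in turn the counts were 15 to 20 in the 786-O sorafenib arm, 0 to 2 in the sunitinib arm, 0 to 1 in A498, 2 to 3 between drugs, 5 between lines and 17 to 20 between untreated lines. EBP between the untreated lines went from 0.89 to -0.13 with the mean of probe sets, and PDSS1 in A498 from -0.51 to 0.0326. The cause was not tested. With the arrays of the comparison alone, 13 genes passed in 786-O under sorafenib, and SREBF1, HMGCS1, FDPS, SQLE, LSS and EBP did not. No paired analysis was possible because replicate numbers here are the order of deposition. The groups of 4 or 5 arrays and low signals of MVD, CIDEB and MFSD2A limit precision.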

Other observations

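Several genes gave different answers on different probe sets. Of the 18 genes that rose in 786-O under sorafenib, 11 had 21 further probe sets past the filter, of which 13 rose and 19 lay above 0. The 2 below 0 were of EBP (-0.42) and IDI1 (-0.04), and neither passed. Further probe sets of SQLE gave 0.82, 0.57 and 0.40, of which the last did not pass. DHCR7 gave 1.16 on its other probe set and HILPDA 0.64. The dimmest ELOVL6 probe set rose in 786-O (0.71) and in A498 (0.43) under sorafenib. The chosen one, of the highest mean, gave 0.33 and 0.26 there, and a further one gave 0.31 and -0.26. Neither of these passed. For MVK, the gene that passed in A498, the other probe sets gave -0.68 and -0.11 there, and 0.54 and 0.57 in 786-O under sorafenib, where the chosen one gave -0.08.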
